A study of Mus musculus with 56 samples.

Results

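Macrophages grown from mouse bone marrow (BMDMs) were mapped by ChIP-seq for histone deacetylase 3 (HDAC3) without treatment and after 1 hr of IL-4. Overlapping peaks (at least 1 bp) of the 4 HDAC3 peak lists were merged into 18252 regions. Of these, 1628 (8.92%) had a peak in both IL-4 samples and in neither untreated sample, and these gained HDAC3 regions are described here. For comparison, 6052 regions had a peak in all 4 samples (kept regions), 345 had a peak in both untreated samples and in neither IL-4 sample (lost regions), and 10227 had another pattern. All cells came from wild-type C57BL/6 mice of 8 to 12 weeks and were differentiated for 6 days with L929 supernatant, and the labels name MCSF in untreated (ctrl) and treated groups alike. IL-4 was added at 20 ng/ml for 1 hr, with 2 samples per group and antibody, and p300, PU.1, HDAC1, HDAC2, H3K27Ac, RNAPII-pS5, and RNAPII-pS2 were mapped in the same design. In a second experiment, RNAPII-pS5, RNAPII-pS2, and p65 were mapped in 4 groups of 2 samples: untreated, IL-4 for 24 hr, LPS (100 ng/ml) for 1 hr, and LPS for 1 hr after 24 hr of IL-4.

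HDAC3 is a class I enzyme that removes acetyl groups from histones, and it works as the catalytic subunit of the NCoR and SMRT corepressor complexes. IL-4 acts through JAK kinases on the transcription factor STAT6, which enters the nucleus and binds a palindrome of TTC and GAA with a spacer of 4 bases. In macrophages HDAC3 is known as a regulator of both inflammatory and alternative activation. p300 is an acetyltransferase that writes H3K27Ac at active enhancers, and PU.1 is the factor that marks most enhancers of the macrophage lineage. The phosphorylated forms of RNA polymerase II follow initiation (RNAPII-pS5) and elongation (RNAPII-pS2), and RNAPII-pS5 is also found at active enhancers.

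The sequences of the strongest gained regions are shown first, because the STAT palindrome (TTCNNNNGAA, called STAT N4 here) differed most in frequency between gained and kept HDAC3 regions among the 8 motifs searched. The region with the highest HDAC3 scores lay in the intron of the non-coding gene Gm20139 on chromosome 10, and the 300 bases around its peak centre (GRCm38/mm10, plus strand, chr10:19167855-19168154) read as follows, with the STAT N4 match at bases 248 to 257 in capitals.
Gm20139 region: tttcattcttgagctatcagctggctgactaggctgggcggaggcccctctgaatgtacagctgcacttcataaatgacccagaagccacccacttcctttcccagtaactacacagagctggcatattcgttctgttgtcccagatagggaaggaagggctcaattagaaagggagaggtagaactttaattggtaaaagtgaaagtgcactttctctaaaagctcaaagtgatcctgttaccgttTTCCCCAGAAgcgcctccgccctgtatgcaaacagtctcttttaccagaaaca

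Of the 20 gained regions with the highest HDAC3 scores, 16 held a STAT N4 match within the same 300 bp window, 3 held a match to the palindrome with a spacer of 3 bases, and 3 held neither. The matches below (40 bases each, plus strand, match in capitals) show how far the spacer and the flanks varied between strong gained regions and between 3 gained regions near Socs1, where several gained regions lay together. The gained regions 10.7, 71.9, 95.6, and 108.7 kb downstream of Socs1 held no STAT N4 match in the 300 bp window.
Pak2 intron, chr16:32059959-32059998: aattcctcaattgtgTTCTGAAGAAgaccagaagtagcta
Birc2, intergenic, chr9:7846999-7847038: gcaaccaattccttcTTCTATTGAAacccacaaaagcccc
Prdm1, intergenic, chr10:44539335-44539374: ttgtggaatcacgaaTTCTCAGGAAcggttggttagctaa
Irg1, intergenic, chr14:103042965-103043004: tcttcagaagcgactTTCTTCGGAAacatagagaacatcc
Pim3, intergenic, chr15:88855600-88855639: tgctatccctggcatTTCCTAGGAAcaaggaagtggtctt
Tlr4, intergenic, chr4:66852132-66852171: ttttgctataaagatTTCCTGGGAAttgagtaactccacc
Il1rl2, intergenic, chr1:40322720-40322759: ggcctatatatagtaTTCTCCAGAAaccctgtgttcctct
Socs1, 83.0 kb downstream, chr16:10702548-10702587: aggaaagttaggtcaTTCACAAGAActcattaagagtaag
Socs1, 81.2 kb downstream, chr16:10704237-10704276: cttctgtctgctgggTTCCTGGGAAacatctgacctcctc
Socs1 promoter, chr16:10786107-10786146: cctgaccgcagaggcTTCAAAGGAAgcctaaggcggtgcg

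Peaks carry a score on a −log10 scale (of a p-value or q-value), and H3K27Ac regions carry a normalized tag signal. Scores compare the same antibody between samples, not antibodies with each other, and a higher score from more cells bound or from more protein bound per cell cannot be told apart. The HDAC3 lists held 11985 and 8440 peaks in the untreated samples and 13599 and 11971 in the IL-4 samples. For p300, the list of untreated replicate 1 stood apart, with 44787 peaks (median score 11.04) against 66710 to 69360 in the other 3 (median score 18.2 to 19.2), so the p300 calls and median changes are given with and without it. The RNAPII-pS2 peaks of the 1 hr experiment are named for the other treatment than their sample label gives, so these values are given by the label and no direction is drawn from them. The labels give 1 catalogue number for both the HDAC3 and the H3K27Ac antibody, while the study's list of antibodies gives another number for HDAC3. HDAC3 peaks had a median width of 249 to 277 bp per list. H3K27Ac regions (median 1001 bp) were called by another method with a set size, so the widths cannot be compared. In all, 591 gained HDAC3 regions (36.3%) overlapped no H3K27Ac region in any of the 4 samples, against 27.7% of kept and 32.5% of all HDAC3 regions. Whether 1 antibody was used for both was not tested. As a check of the cell type, RNAPII-pS5 peaks covered the promoters of 3 of 7 macrophage markers (Itgam, Cd68, and Mertk) in both untreated samples and of Csf1r in 1, and of 0 of 4 T cell, 0 of 4 B cell, 0 of 4 neutrophil, 0 of 3 erythroid, and 0 of 3 fibroblast markers. Adgre1, Spi1, and Lyz2 had no such peak.

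Gained HDAC3 regions were mostly weak. The rule that chose them used the HDAC3 peaks, so their HDAC3 scores are a description. The median score was 7.62 in IL-4 replicate 1 and 6.69 in IL-4 replicate 2, against 15.4 and 13.2 in kept regions. The lower of both IL-4 scores ran from 2.01 to 71.7 with a median of 5.80, and it was at least 10 in 234 regions and at least 20 in 35. Lost regions were weaker, and the lower of both untreated scores was at least 10 in 6 of them and reached 14.2. Gained regions were 182 to 796 bp wide (median 300 bp), and kept regions had a median width of 397 bp.

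The edge of the rule is soft. The weakest regions inside it lay near Ptch1 (8.27 and 2.01 in IL-4 replicates 1 and 2), Pfkfb4 (5.98 and 2.05), and Itga1 (8.55 and 2.15). Just outside it were regions near 1700027F09Rik (7.02 and 5.19), Snord93 (8.06 and 7.37), and Gbp11 (8.21 and 8.05), each kept out by a single untreated peak with a score of 1.96, 2.02, and 2.05. In all, 2048 regions had peaks in both IL-4 samples and in 1 untreated sample. Untreated replicate 1, with the longer list, held that peak in 1718 of them and untreated replicate 2 in 330.

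Gained HDAC3 regions lay at distal sites. Introns held 782 (48.0%), intergenic sequence 705 (43.3%), and promoters 89 (5.47%), while promoters held 5.22% of kept and 9.28% of lost regions. The median distance to the nearest transcription start site was 22.8 kb for gained, 21.3 kb for kept, and 21.8 kb for lost regions. Repeats covered the centre of 269 gained regions (16.5%), LTR elements 121 (7.43%), and CpG islands 8 (0.491%), close to 16.3%, 6.10%, and 0.330% of kept regions. Of the gained regions, 184 (11.3%) lay within 5 kb of a kept region and 925 (56.8%) within 50 kb, close to 13.6% and 58.8% of lost regions.

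The 20 gained regions with the highest HDAC3 scores are given by their nearest genes. At Gm20139 the HDAC3 scores were 77.6 and 71.7 in IL-4 replicates 1 and 2. The region in the first intron of Pak2, a kinase that acts on the cytoskeleton, scored 57.2 and 59.8. Next came regions 11.7 kb upstream of Birc2, an inhibitor of apoptosis (36.6 and 38.6), and 80.7 kb upstream of Prdm1, which encodes the repressor Blimp-1 (36.6 and 45.7). The list went on with Tex2, Irg1 (the enzyme that makes itaconate), Pim3 (a serine/threonine kinase), and Tlr4 (the LPS receptor), followed by Batf3 (an AP-1 family factor), Il1rl2 (a receptor for IL-36), Btbd3, and Serpina3f. Zfp609, Ifngr1 (a chain of the interferon-gamma receptor), Klf7, Gm5779, Atxn7l3b, Prkcb (a protein kinase C), Tnip3 (an inhibitor of NF-kB signalling), and Hook3 completed the 20. Of these 20 regions, 12 were intergenic, 6 intronic, and 1 (Tnip3) a promoter, and the lower HDAC3 score was 23.1 or more in each.

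p300 sat at these 20 regions before IL-4 in all but 1 of them and was higher after IL-4. p300 had a peak in both untreated samples at 19, with scores of 2.33 to 94.8, and in both IL-4 samples at 20, with scores of 147 to 315. At Gm20139 p300 scored 6.6 and 13.0 in the untreated samples and 232 and 222 in the IL-4 samples. At Tex2 there was no untreated p300 peak, and the IL-4 scores were 260 and 246. In all 20 regions both IL-4 samples lay above both untreated samples. These are scores before centring, and the share of all p300 peaks with such a separation was not counted.

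**Figure D1:**
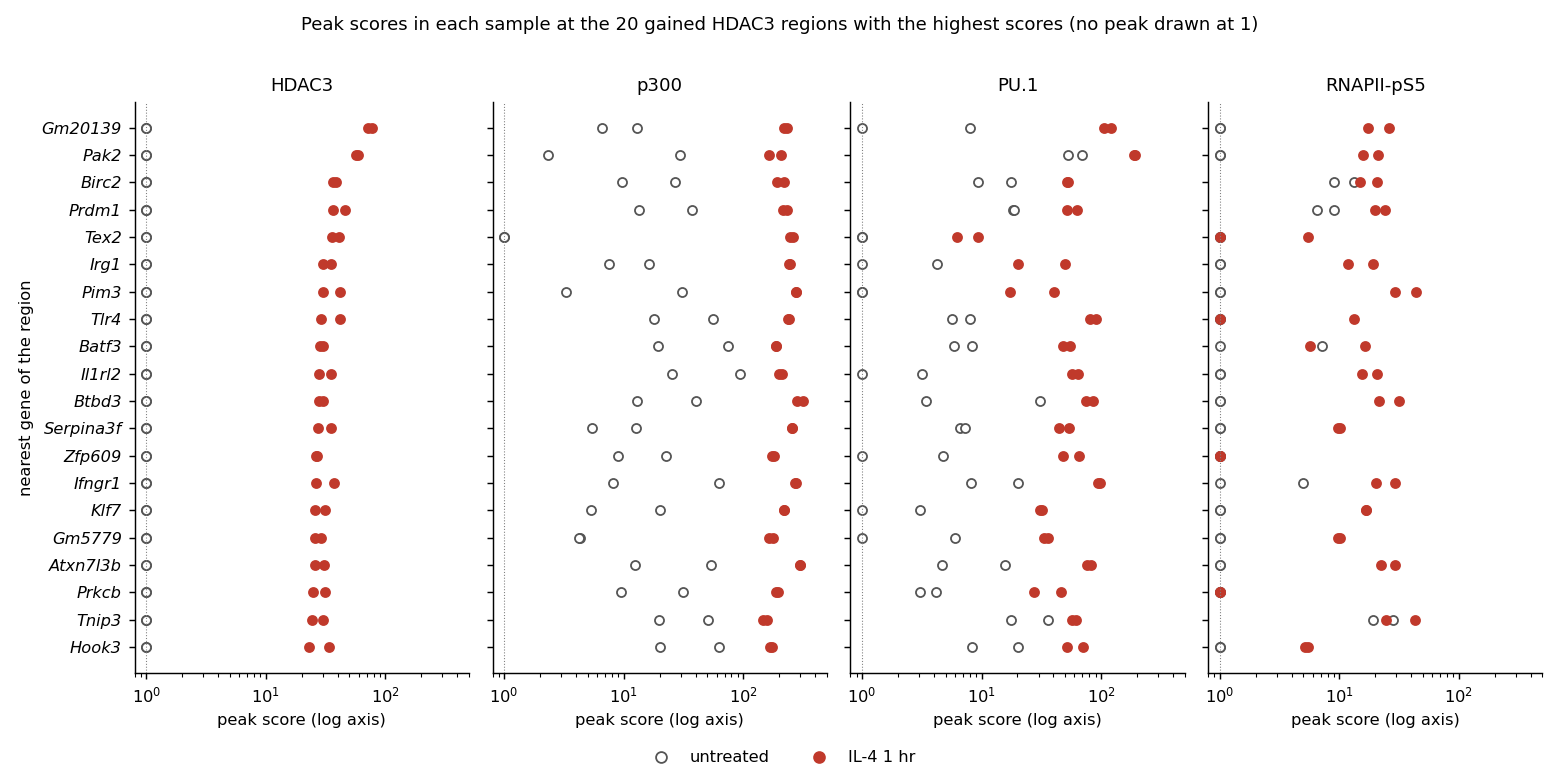
Peak scores (log axis) of HDAC3, p300, PU.1, and RNAPII-pS5 at the 20 gained HDAC3 regions with the highest scores, by nearest gene. Open circles are the 2 untreated samples, red circles the 2 IL-4 samples, and a sample without a peak is drawn at 1. All IL-4 p300 and PU.1 circles lie to the right of the untreated ones, while RNAPII-pS5 at Tnip3, Batf3, Prkcb, Tlr4, Tex2, and Zfp609 does not separate the groups.

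PU.1 had a peak in both untreated samples at 12 of the 20 regions and in both IL-4 samples at all 20, and the groups did not overlap at any of them. HDAC1 scored at most 8.78 untreated and 23.9 after IL-4, and its IL-4 samples lay above its untreated samples at 14 of 20 regions. HDAC2 scored at most 12.5 untreated and 34.6 after IL-4, and its groups were apart at 19 of 20. RNAPII-pS5 peaks were present in both IL-4 samples at 16 regions and in neither untreated sample at 11 of those. H3K27Ac regions were present in both IL-4 samples at 11 of the 20, and in neither untreated sample at 5 of those. How often the groups lay apart over all peaks of an antibody was not counted, so these counts only describe the 20 regions.

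Across all gained HDAC3 regions, most already carried p300 and PU.1 in untreated cells. p300 peaks overlapped 81.6% and 92.6% of them in the untreated samples and 99.6% in each IL-4 sample. PU.1 peaks overlapped 77.6% and 73.8% untreated and 92.9% and 93.9% after IL-4. In kept regions the same shares ran from 99.0% to 99.7% for p300 and from 94.4% to 95.9% for PU.1. HDAC1 covered 56.0% and 47.5% of gained regions untreated and 67.7% and 62.8% after IL-4, and HDAC2 52.6% and 47.9% against 85.4% and 70.8%. H3K27Ac covered 47.9% and 48.2% against 58.8% and 58.9%, and RNAPII-pS5 49.3% and 41.0% against 69.2% and 64.7%. For each of these 6 antibodies both IL-4 samples lay above both untreated samples, with more peaks per list after IL-4 in both samples only for p300. A two-sided exact permutation test of 2 against 2 samples cannot give a p under 0.333, so no test was made of these shares.

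**Figure D2:**
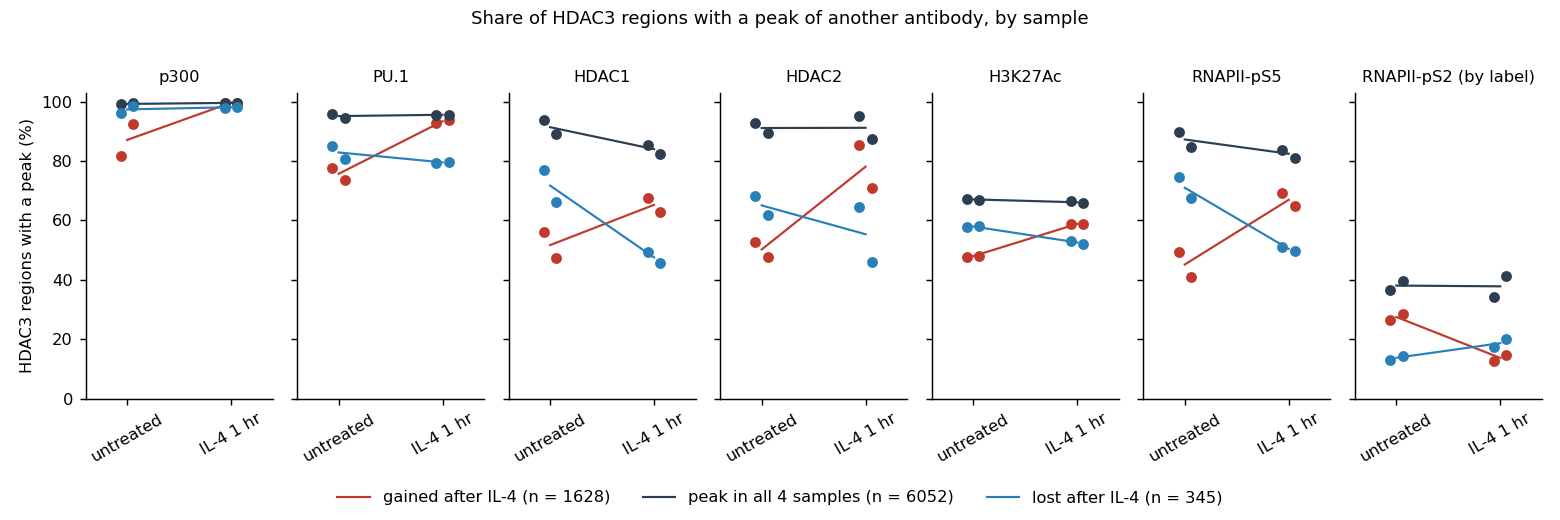
Share of HDAC3 regions (%) with a peak of another antibody in each of the 2 untreated and 2 IL-4 samples (points, with lines through the group means), for 1628 gained, 6052 kept, and 345 lost regions. RNAPII-pS2 is plotted by the sample label. In gained regions the IL-4 points lie above the untreated points for p300, PU.1, HDAC1, HDAC2, H3K27Ac, and RNAPII-pS5, as at Gm20139, where HDAC1 had no untreated peak and scored 19.4 and 16.5 after IL-4.

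Counted together, 413 gained regions (25.4%) had p300, PU.1, HDAC1, and HDAC2 peaks in both untreated samples, against 76.8% of kept and 37.7% of lost regions. None of the 4 was present in both untreated samples at 197 gained regions (12.1%), against 0.297% of kept regions. At 979 gained regions (60.1%, against 95.8% of kept) none of 6 antibodies, RNAPII-pS2 left out, had peaks in both IL-4 samples and in no untreated sample. HDAC2 had this pattern at 304 gained regions (18.7%, against 4.37% of all HDAC3 regions) and RNAPII-pS5 at 286 (17.6% against 3.56%). HDAC1 had it at 194 (11.9% against 2.28%) and PU.1 at 179 (10.995% against 2.61%). For H3K27Ac the count was 158 (9.71% against 3.03%), and for p300 it was 113 (6.94% against 1.64%).

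To ask whether the scores of the other antibodies changed, overlapping peaks of each antibody were merged, an absent peak received that antibody's minimum, and log2 scores were compared with limma over all merged peaks with Benjamini-Hochberg adjustment. The change is a log2 difference of peak scores, IL-4 minus untreated, and peaks found in fewer than 2 samples were not fitted. A peak that passed this filter only through the IL-4 samples had to differ, so no adjusted p is given where a whole group lacked the peak, and values are also given for the peaks found in all 4 samples of an antibody. The study calls its ChIP-seq replicates independent and biological without saying whether they came from separate animals or cultures, or whether libraries of different antibodies share chromatin, and the p-values cover the spread between these samples.

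H3K27Ac was called in both directions at gained regions, mostly higher. Of 982 gained regions with a fitted H3K27Ac region, 574 (58.5%) rose and 94 (9.57%) fell at an adjusted p of at most 0.05, where 18.5% and 21.7% of all H3K27Ac regions rose and fell. Without IL-4 replicate 1 the 574 became 323, and without IL-4 replicate 2 they became 315. In the 737 gained regions with H3K27Ac in all 4 samples, 397 rose and 75 fell, and the median change was 0.43. The median signal there was 68.1 and 67.2 untreated and 108 and 111 after IL-4. In kept regions 896 of 4220 rose and 1488 fell, and in lost regions 5 of 202 rose and 100 fell. Over H3K27Ac regions present in all 4 samples the median change was −0.17 in kept and −0.37 in lost regions. The median over all H3K27Ac regions in all 4 samples was −0.01.

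p300 was called higher at 303 of 1624 gained regions (18.7%) and lower at 0, where 1.88% of all p300 peaks were called higher and 0.58% lower. These calls lie at the threshold (limma adjusted p of 0.0472 at best). Without centring of the samples 0 were left, and the p300 changes moved by 0.67. With a floor 4 times as high, which missing peaks and all lower observed scores then took, or with the replicate number as a block, 0 were left too. Without untreated p300 replicate 1, 334 were called higher, without untreated replicate 2, 702, and without either IL-4 replicate, 0. At an unadjusted p of at most 0.05, 917 were higher and 9 lower, where 17.6% and 7.43% of all p300 peaks were. Of these, 653 and 9 were at peaks found in all 4 samples. In the 1340 gained regions with p300 in all 4 samples the median change was 0.87 and the change was positive at 80.5%, against a median of −0.10 and 43.7% over all such p300 peaks, and 156 of the 303 calls fell in these regions. Without untreated replicate 1, an alternative chosen after seeing the data, the median change was 0.97 over the 1507 gained regions with p300 in the other 3 samples. Over the 1340 gained regions with p300 in all 4 samples, the median p300 scores were 16.3 and 51.2 untreated and 95.6 and 95.7 after IL-4. Untreated replicate 1 is the lower one. In kept regions they were 47.4, 126, 121, and 124 in the same order.

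RNAPII-pS5 was called higher at 150 of 1106 gained regions and lower at 3, where 1.51% of all RNAPII-pS5 peaks were higher and 1.46% lower. These calls too lie at the threshold (limma adjusted p of 0.0492 at best), and 0 were left without centring, when only peaks found in all 4 samples were fitted, with the replicate block, or without any 1 of the 4 samples. At an unadjusted p of at most 0.05, 446 were higher and 55 lower, where 9.18% and 10.8% of all peaks were. Of these, 116 and 24 were at peaks found in all 4 samples. In the 582 regions with RNAPII-pS5 in all 4 samples the median change was 0.16, and 8 of the 150 calls, from the fit over all peaks, fell in them. RNAPII-pS2 was fitted at 422 gained regions, with 0 called (0% of all 18314 peaks), and by the labels 21 were higher and 189 lower at an unadjusted p of at most 0.05, where 10.2% and 11.4% of all peaks were.

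PU.1, HDAC1, and HDAC2 gave 0 calls after adjustment at gained regions, and 0% of all 67996 PU.1, 27384 HDAC1, and 24751 HDAC2 peaks were called in either direction by limma. At an unadjusted p of at most 0.05, PU.1 was higher at 430 of 1517 gained regions and lower at 7, where 6.95% and 5.19% of all PU.1 peaks were. HDAC1 was higher at 268 of 1145 and lower at 36, where 4.3% and 9.71% of all HDAC1 peaks were. HDAC2 was higher at 369 of 1289 and lower at 14, where 8.19% and 5.7% of all HDAC2 peaks were. Among regions with a peak in all 4 samples, the median change was 0.45 for PU.1 (1116 regions), 0.25 for HDAC1 (486), and 0.24 for HDAC2 (541), against −0.03, 0.01, and −0.02 over all such peaks of each antibody. Without centring the changes moved by 0.33 for PU.1 and by −0.32 for HDAC1. The HDAC1 median at these regions was then below 0, with raw median scores of 9.15 and 6.95 untreated and 8.27 and 7.15 after IL-4.

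**Figure D3:**
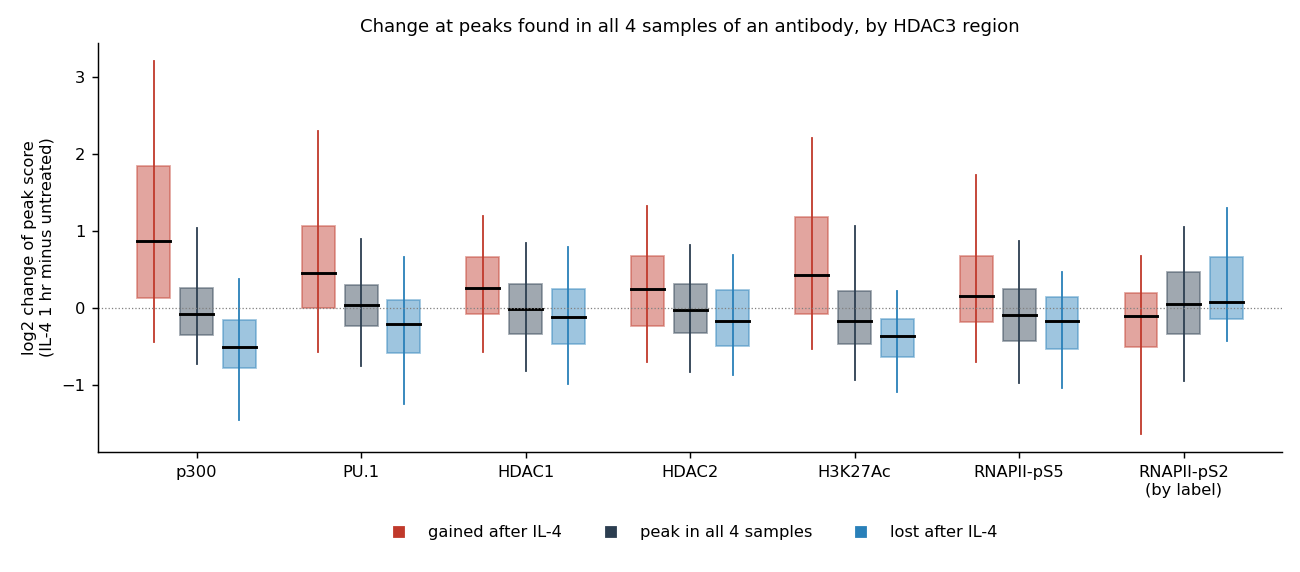
Log2 change of peak score (IL-4 minus untreated) at peaks found in all 4 samples of an antibody, for those that overlap gained, kept, or lost HDAC3 regions. Black lines are medians over regions, boxes run from the 25% to the 75% quantile and thin lines from the 5% to the 95% quantile. The median at gained regions is 0.87 for p300, 0.45 for PU.1, and 0.43 for H3K27Ac, and RNAPII-pS2 is by the label.

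Calls of several antibodies were counted together. Of the 1628 gained regions, 891 (54.7%) had no antibody called higher, 508 (31.2%) had 1, 168 (10.3%) had 2, and 61 (3.75%) had 3. In kept regions the same shares were 84.8%, 14.8%, 0.330%, and 0.0330%, and in all HDAC3 regions 82.8%, 14.8%, 1.87%, and 0.488%. The antibodies were always among p300, H3K27Ac, and RNAPII-pS5 since the others gave no calls. Peaks found only in the IL-4 samples had to differ, and these counts include them, so they are a description. Peaks found in all 4 samples held 156 of the 303 p300 calls and 397 of the 574 H3K27Ac calls at gained regions. For RNAPII-pS5 they held 8 of the 150 calls. At the region 10.4 kb upstream of Btbd3, p300 scored 13.03 and 40.01 untreated and 284 and 315 after IL-4, H3K27Ac had no untreated region and a signal of 65.2 and 64.6 after IL-4, and RNAPII-pS5 had no untreated peak and scored 31.5 and 21.6. At Gpc1, which encodes a glypican of the cell surface, RNAPII-pS5 had no untreated peak and scored 48.4 and 46.7 after IL-4. At Rgs1, a regulator of G protein signalling, H3K27Ac was 19.3 and 12.5 untreated and 190 and 196 after IL-4, a rise of 3.69 ± 0.24 (SE, adjusted p = 0.00294). The other regions with 3 calls and the highest HDAC3 scores lay near Klf7, Atxn7l3b, Gm14005, Ppp2r3a, Adipoq, Tax1bp1, and Gm20125, and in each of these the groups of p300, H3K27Ac, and RNAPII-pS5 did not overlap. These regions were chosen by those calls, so the separation is a description.

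The STAT N4 motif was present in 653 of 1627 gained regions with a sequence (40.1%), in 11.4% of kept, 2.61% of lost, and 14.7% of all HDAC3 regions. The 300 bp window around the centre of the highest HDAC3 peak was searched on both strands. The same palindrome with a spacer of 3 bases (TTCNNNGAA, STAT N3) was present in 21.3% of gained, 14.5% of kept, 7.83% of lost, and 13.8% of all regions. Other motifs were as frequent in kept regions or more so. The PU.1 motif (GAGGAAG) was in 31.3% of gained, 38.9% of kept, and 35.5% of all regions, the AP-1 motif (TGANTCA) in 20.2%, 23.0%, and 21.8%, and the C/EBP motif (TTGCNNAA) in 19.5%, 23.2%, and 20.9%. The RUNX motif (TGTGGT) was in 488 gained regions, in 34.6% of kept, and in 30.9% of all, the IRF motif (GAAA 2 times with a spacer of 2 bases) in 7.74%, 8.21%, and 7.67%, and the NF-kB motif (GGGANNNTCC) in 3.93%, 4.25%, and 4.36%. Matches of different motifs may overlap, and the median GC content of the windows was 44.7% in gained, 46.7% in kept, and 48.3% in lost regions.

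**Figure D4:**
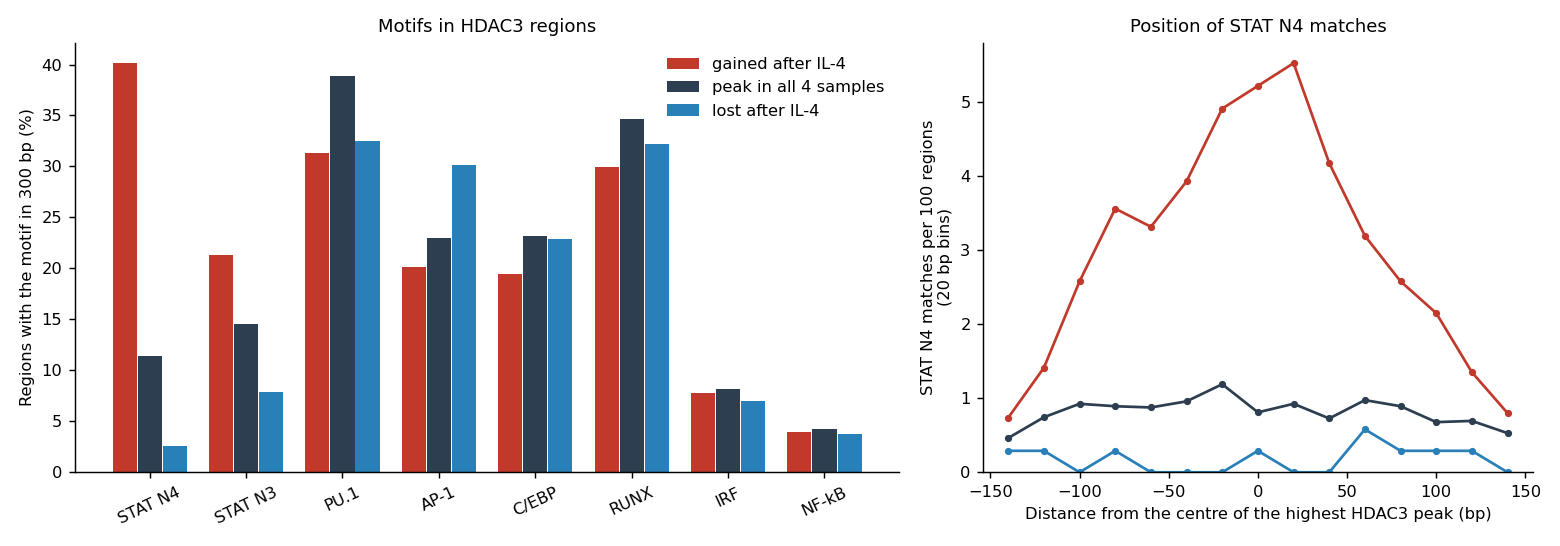
Left, share of HDAC3 regions (%) with each motif in the 300 bp window, for gained, kept, and lost regions. Right, STAT N4 matches per 100 regions by distance from the centre of the highest HDAC3 peak (bp, bins of 20 bp). STAT N4 is in 40.1% of gained and 11.4% of kept regions, and in gained regions its matches cluster at the peak centre.

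Among gained regions, STAT N4 matches were more frequent where HDAC3 scores were high. They were found in 66% of the 100 gained regions with the highest lower score, in 57.3% of the next 300, in 46.5% of the 400 after those, and in 27.7% of the last 827 with a sequence. The median distance of a match from the peak centre was 48 bp in gained and 66 bp in kept regions, and 52.7% of 740 matches in gained and 38.2% of 743 in kept regions lay within 50 bp. When each HDAC3 list was limited to the same number of top peaks, an alternative chosen after seeing the data, 886 regions were gained and 50.8% of them held the motif, against 12.6% of kept and 2.57% of lost regions.

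The other antibodies were then read at gained regions with and without STAT N4, as a description, since the difference between these regions was not tested. p300 had peaks in both untreated samples at 69.8% of gained regions with the motif and at 89.2% of those without it. At peaks found in all 4 samples, an alternative chosen after seeing the data, the median p300 change was 1.78 over 469 regions with the motif and 0.45 over 870 without it. Without untreated p300 replicate 1, at peaks found in the other 3 samples, these medians were 1.94 over 572 and 0.45 over 935. At H3K27Ac regions found in all 4 samples, H3K27Ac rose at an adjusted p of at most 0.05 at 84.4% of 244 with the motif and at 38.7% of 493 without it, with median changes of 1.07 and 0.14. In the same order the medians were 0.98 (385 regions) and 0.24 (731) for PU.1, and 0.60 (185) and 0.09 (397) for RNAPII-pS5. For HDAC1 they were 0.42 (145) and 0.20 (340), and for HDAC2 0.49 (154) and 0.12 (386). With the peaks that were fitted through the IL-4 samples alone included, the medians for regions with the motif were higher, such as 2.24 for p300 and 1.71 for RNAPII-pS5.

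The 1628 gained regions had 1325 nearest genes, of which 1112 had a single gained region and 57 had 3 or more. Socs1 and Prdm1 had 7 each. For Prdm1 these were 7 of 22 HDAC3 regions, 8 of which were kept, while for Socs1 they were 7 of 10 and none was kept. Pik3r1 (a regulatory subunit of PI3 kinase) had 6, and Fyn (a Src family kinase), Gm20139, and Rnf19b had 5 each.

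Socs1 encodes an inhibitor of JAK kinases that cytokines induce, and its 7 gained regions ran from the promoter to 108.7 kb downstream, with 5 of them in introns of a neighbouring gene. At the promoter region (chr16:10786019-10786295, HDAC3 9.08 and 10.8), p300 scored 15.8 and 25.7 untreated and 219 and 213 after IL-4. H3K27Ac there was 175 and 168 untreated and 684 and 646 after IL-4, a rise of 2.01 ± 0.07 (SE, adjusted p = 0.000649). RNAPII-pS5 did not follow, with 51.9 and 35.2 untreated and 35.4 and 29.6 after IL-4, and the groups overlapped. At the region 95.6 kb downstream, RNAPII-pS5 had 1 untreated peak (2.37) and scored 23.0 and 32.6 after IL-4. At the region 83.0 kb downstream (HDAC3 16.2 and 18.7), p300 scored 6.38 and 21.8 untreated and 224 and 206 after IL-4, and PU.1, HDAC1, HDAC2, and RNAPII-pS5 had peaks in both IL-4 samples and in no untreated one. At the region 71.9 kb downstream H3K27Ac rose from 17.5 and 10.9 to 70.9 and 71.2 (adjusted p = 0.00815), and RNAPII-pS5 went from 4.12 and no peak to 28.8 and 35.9 (adjusted p = 0.0492).

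The 7 regions near Prdm1 were all intergenic and 80.7 to 270.5 kb upstream. The nearest was also the strongest, with p300 at 13.4 and 37.4 untreated and 235 and 215 after IL-4 and H3K27Ac at 31.3 and 40.3 against 88.7 and 92.3 (SE of the log2 change 0.15, adjusted p = 0.00837). At 5 of the other 6 the p300 samples of the groups did not overlap, and none of the 6 was called for p300. These scores are before centring, and how often the groups lay apart over all p300 peaks was not counted, so the 5 are a description. At the region 199.8 kb upstream p300 scored 4.06 and 27.6 untreated and 130 and 119 after IL-4 (adjusted p = 0.0637). At the region 140.2 kb upstream it scored 13.0 and 40.8 untreated and 123 and 145 after IL-4 (adjusted p = 0.0577). At the region 172.0 kb upstream it went from 12.5 and 18.5 to 80.4 and 79.2 (adjusted p = 0.13), and PU.1 there scored 5.71 and 3.18 untreated and 19.2 and 18.1 after IL-4. RNAPII-pS5 at the same place overlapped between the groups, with 44.2 and 26.9 untreated and 31.0 and 28.6 after IL-4. At the region 143.6 kb upstream the p300 scores overlapped, with 35.1 and 92.9 untreated and 98.0 and 85.3 after IL-4.

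Gained regions were next counted near gene lists for signalling, polarization, and transcription, with the same counts in the other HDAC3 regions beside them. Of 28 JAK-STAT and feedback genes, 8 had a gained region nearest to them (Socs1, Cish, Bcl6, Jak2, Socs6, Il4ra, Il13ra1, and Ptpn2), in all 16 regions or 0.983% of gained, against 0.512% of kept and 0.542% of all regions. Socs1 alone held 7 of the 16 gained regions, but 10 of the 99 HDAC3 regions near these genes, so the higher share rests largely on 1 locus. Cish encodes a relative of Socs1, and its promoter region (HDAC3 12.7 and 13.6) had H3K27Ac at 14.1 and 16.9 untreated and 86.4 and 91.6 after IL-4, a rise of 2.58 ± 0.12 (SE, adjusted p = 0.00137). RNAPII-pS5 at the same place scored 9.79 and 7.28 untreated and 35.5 and 36.1 after IL-4 (adjusted p = 0.0492), and PU.1 had no peak there in any sample. At Bcl6, a transcriptional repressor, a region 132.5 kb upstream had no untreated H3K27Ac and 23.2 and 23.6 after IL-4. At the receptor genes Il4ra and Il13ra1 the HDAC3 scores were low (5.32 and 5.56 at Il4ra), and p300 at Il13ra1 was 15.7 and 35.6 untreated and 21.3 and 11.8 after IL-4, with groups that overlapped.

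Of 40 IL-4 induced and alternative activation genes, 13 had a gained region (21 regions, 1.29% of gained, 1.06% of kept, and 0.871% of all). They were Mrc1 (the mannose receptor), Pdcd1lg2 (the checkpoint ligand PD-L2), Tgm2, Klf4, Edn1, Mgl2, Irf4, Pparg, Flt1, Batf3, Ch25h, Cdh1, and Itgax. At Irf4, a factor of alternative activation, the region 34.4 kb upstream scored 17.4 and 19.6 for HDAC3. p300 there was 13.0 and 46.0 untreated and 316 and 309 after IL-4, PU.1 was 5.14 and 4.15 against 79.3 and 104, and H3K27Ac rose from 36.8 and 42.5 to 166 and 170 (2.14 ± 0.10 SE, adjusted p = 0.00139). At Pdcd1lg2 H3K27Ac had no untreated region and a signal of 152 and 134 after IL-4. At Cdh1, which encodes E-cadherin, H3K27Ac rose from 124 and 110 to 322 and 345 (1.56 ± 0.09 SE, adjusted p = 0.00228), while p300 at 23.5 and 60.1 against 94.3 and 84.1 was not called (adjusted p = 0.319). At the strongest gained regions near Batf3, Klf4, and Flt1 no antibody was called higher.

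Of 38 inflammatory and IL-4 repressed genes, 7 had a gained region (11 regions, 0.676% of gained, 1.12% of kept, and 0.740% of all): Tlr4, Abca1, Il12a, Il18, Ccl4, Nfkb1, and Tnfaip3. At Tlr4 the region 24.4 kb from the start site had no untreated H3K27Ac and a signal of 255 and 252 after IL-4. In the first intron of Nfkb1, a subunit of NF-kB, p300, PU.1, HDAC1, HDAC2, and RNAPII-pS5 had no untreated peak, and p300 scored 112 and 127 after IL-4. At Il18 nothing was called, with H3K27Ac at 22.7 and 23.7 untreated and 21.2 in each IL-4 sample, and RNAPII-pS5 at 6.84 and 4.77 untreated and without a peak after IL-4. At Abca1, the cholesterol exporter, p300 was 7.16 and 19.1 untreated and 35.0 and 37.6 after IL-4, which was not called (adjusted p = 0.151).

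Macrophage lineage factor genes had 8 gained regions near 7 of 20 genes (0.491% of gained, 0.925% of kept, and 0.762% of all), with Runx1, Zeb2, Mef2c, Maf, Irf8, Fli1, and Mitf. At Zeb2, a repressor that helps to keep macrophage identity, H3K27Ac rose from 105 and 91.8 to 239 and 239 (1.34 ± 0.09 SE, adjusted p = 0.0032). At Irf8 it was 305 and 307 untreated and 298 and 287 after IL-4 and was not called (adjusted p = 0.894). Early response factor genes had 5 regions near 3 of 22 genes (Klf6, Jun, and Atf3; 0.307% of gained, 0.512% of kept, and 0.449% of all), and H3K27Ac rose near Klf6 from 54.9 and 55.9 to 157 and 156 (adjusted p = 0.000846). Genes of deacetylases, corepressors, and acetyltransferases had 4 regions near 2 of 25 genes, Hdac9 and Hdac7 (0.246% of gained, 0.297% of kept, and 0.301% of all). At Hdac9 p300 had no untreated peak and scored 46.4 and 59.8 after IL-4, and at Hdac7 the HDAC3 scores were 4.67 and 4.83.

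The study sorted genes that IL-4 regulates into clusters by an RNA time course in BMDMs, 4 induced (A to D) and 1 repressed (E). Genes of the induced clusters were nearest to 17.6% of gained regions, 11.7% of kept, 6.38% of lost, and 11.7% of all HDAC3 regions, and these were 208 of 989 genes. By cluster the shares of gained and of all regions were 1.17% and 0.564% (A), 5.28% and 2.58% (B), 7.56% and 4.85% (C), and 3.56% and 3.74% (D). Genes of the repressed cluster were nearest to 5.90% of gained, 11.02% of kept, 13.6% of lost, and 9.28% of all regions. The clusters were chosen by the study in these cells, so they are no independent evidence, and the nearest gene need not be the one a region acts on.

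In the second experiment, RNAPII-pS5 and p65 could be read at the gained regions in samples that the rule did not use. RNAPII-pS5 peaks overlapped 29.2% and 26.9% of gained regions in untreated samples, 38.9% and 39.9% after 24 hr of IL-4, 22.8% and 25.4% with LPS, and 28.4% and 28.3% with both. After 24 hr of IL-4, RNAPII-pS5 rose at 170 of 846 fitted gained regions and fell at 54, where 9.61% and 7.14% of all RNAPII-pS5 peaks rose and fell by limma at an adjusted p of at most 0.05. Leaving out a sample brought the 170 to between 59 and 108, the lowest without IL-4 replicate 1. Only 166 gained regions had RNAPII-pS5 in all 8 samples of this experiment, with a median change of 0.10, 14 that rose (8.43%), and 4 that fell. At such peaks the median change was 0.12 in 39 lost, −0.15 in kept, and −0.05 in all HDAC3 regions. The shares that rose there were 7.69%, 2.73%, and 3.64%, so at these peaks gained and lost regions were alike. At Gm20139 and Pak2 there was no untreated peak and the 24 hr IL-4 scores were 12.1 and 10.6, and 6.77 and 10.6, while RNAPII-pS5 fell at Birc2 (24.2 and 27.1 against 13.3 and 13.2, adjusted p = 0.0429) and the Socs1 promoter went from 11.4 and 7.73 to no peak.

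p65, the NF-kB subunit that LPS brings to the nucleus, overlapped fewer gained than kept regions in all 8 samples. In gained regions the shares were 17.1% and 16.0% untreated, 29.3% and 29.0% after 24 hr of IL-4, 47.2% and 46.5% with LPS, and 60.4% and 61.5% with LPS after IL-4. In kept regions they were 56.4% and 56.9%, 61.9% and 59.8%, 80.3% and 81.4%, and 82.4% and 83.9% in the same order. The p65 lists also differed in length, from 9556 and 9706 peaks untreated and 10253 and 11026 after IL-4 to 26305 and 26820 with LPS and 36738 and 38955 with both, and the part of list length in these shares was not tested.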

How the data were processed

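ChIP-seq peak lists of 56 samples for 9 antibodies were used, 1 list per sample and 2 samples per group, grouped by the labels. Cells were cross-linked with DSG and formaldehyde. The authors aligned reads to mm10 (GRCm38) with BWA, called peaks in each sample, left out blacklisted regions, and used HOMER for annotation. The submitters' processing notes name BWA 0.7.10, SAMtools 0.1.19, HOMER 4.2, and MACS2 2.0.10. The deposited score of MACS2 peaks was taken, from its values, as the −log10 of the peak caller's p-value or q-value, and scores down to 1.3 occur although the stated q-value cut-off of 0.01 corresponds to 2. The deposited H3K27Ac signal is a normalized tag number per HOMER findPeaks region of 1001 bp. No input control is stated, the files analysed here hold no reads, and depth is therefore unknown. The number of peaks per list stands in for it and limits what a missing peak can show.

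HDAC3 peaks overlapping by at least 1 bp were merged, and a region took the annotation and score of its highest peak. For the other antibodies, peaks were merged in the same way, the highest score was taken per sample, a missing peak received the lowest score of the antibody, and log2 scores were centred on the median of merged peaks found in all samples. Merged peaks found in at least 2 samples were compared with limma 3.58.1 (R 4.3.3) and Benjamini-Hochberg adjustment at 0.05, since the read-based comparison of the study needs reads. The fit used 4 samples per antibody at 1 hr and 8 for RNAPII-pS5 at 24 hr. A gained region took the overlapping merged peak with the highest mean. The fit was tested on simulated data. Motifs were searched as exact letters in the NCBI RefSeq sequence of GRCm38, the build of the files, and no peak ran past its chromosome ends. Scripts used Python 3.11.15, pandas 2.3.3, NumPy 2.4.6, and pysam 0.24.0.

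Named genes were those nearest the 20 gained regions with the highest lower IL-4 score, up to 6 per gene list, the genes with the most gained regions, and up to 10 gained regions with the most antibodies called higher. The gained regions, gene lists, and motifs were chosen with earlier results of these data known. Same-numbered replicates did not deviate together (r of 0.000124 to 0.0598 across shared peaks). Alternatives were other overlaps, thresholds, floors, centring, windows, a replicate block, and leaving out each sample, and an equal number of top peaks for the motif share, medians by motif at peaks found in every sample, and p300 medians without untreated replicate 1 were added after seeing the data.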

Additional observations from a re-analysis of the deposited data

Results flagged for a closer look

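By the sample labels, the share of gained HDAC3 regions with an RNAPII-pS2 peak changed by −13.8 percentage points after 1 hr of IL-4 (26.6% and 28.4% untreated, 12.7% and 14.8% with IL-4) and by 7.4 percentage points after 24 hr (50.4% and 49.3% untreated, 56.1% and 58.4% with IL-4). These values stand here because, by label, the samples of the 2 experiments moved in opposite directions, a difference that was not tested. Peaks of the 1 hr lists are named for the other treatment than the label gives. By those names the 1 hr change has the same sign as the 24 hr change, so no difference between the experiments is drawn from these values.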

How the results depend on the processing

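The number of gained regions (1628) fell to 886 with an equal number of top peaks per list. Leaving out 1 HDAC3 sample gave 1958 to 3843 (3346 without untreated replicate 1, 2917 without IL-4 replicate 1, 3843 without IL-4 replicate 2), since fewer lists then have to meet the rule.

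For p300 (303 higher), the counts were 0 without centring, 0 with a floor 4 times as high, 596 among peaks in all 4 samples, 490 with the upper 50% of peaks, 917 at an unadjusted p, and 0 to 702 without 1 sample. For RNAPII-pS5 at 1 hr (150) they were 0 without centring, 0 among peaks in all 4 samples, 51 with the upper 50%, 446 unadjusted, and 0 to 0 without 1 sample. H3K27Ac (574) gave 358 with the upper 50% and 315 to 462 without 1 sample (323 without IL-4 replicate 1, 315 without IL-4 replicate 2). The 0 calls of the others became, with the higher floor, the upper 50%, and the unadjusted p, 265, 124, and 430 for PU.1, 82, 1, and 268 for HDAC1, 52, 27, and 369 for HDAC2 (2 among peaks in all 4 samples), and 3, 2, and 21 for RNAPII-pS2. Without 1 sample these 4 stayed at 0 to 0. RNAPII-pS5 at 24 hr (170) gave 59 to 108 without 1 sample (98 without untreated replicate 1, 108 without untreated replicate 2, 59 and 61 without IL-4 replicates 1 and 2). The cause was not tested where the construction of the setting does not show it. The STAT N4 share (40.1%) was 34.5% in 200 bp, 44.6% in 500 bp, and 40.4% in the whole region, and the promoter share (5.47%) was 7.13% within 1000 bp of a start site and 3.86% at scores of at least 5.

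With the replicate number as a block, p300 and RNAPII-pS5 at 1 hr had 0 calls, H3K27Ac 508, and RNAPII-pS5 at 24 hr 150. The labels share numbers only, and no sample pair deviated together. Scores from 2 samples per group and unknown depth leave changes of 1 log2 unit and less imprecise.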
